A study of Mus musculus with 9 samples.

Results

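The comparison described here set bone marrow-derived macrophages of the Irg1 knockout that had received itaconate against wild-type macrophages, gene by gene. Its members were chosen by library title alone and comprised 6 of the 9 libraries of the study, 3 labelled Irg1KO+ITA (itaconate libraries) and 3 labelled WT. All cells were of the C57BL/6N strain, from mice aged 6 to 16 weeks, and all had spent 24 h with lipopolysaccharide (LPS, an endotoxin from the bacterial cell envelope) at 100 ng/mL. There was no unstimulated group, so values describe the stimulated state only. The itaconate libraries came from Irg1-/- cells given 1 mM itaconate 4 h after LPS, while the WT libraries came from wild-type cells with LPS alone. The remaining 3 libraries, Irg1-/- cells with LPS and no itaconate (KO), entered the fit but not the comparison. A difference between the itaconate and WT libraries therefore combines the genotype and the added compound. Nothing in the labels ties a replicate to a separate animal or culture, and the spread that p-values are set against may be technical.

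Irg1, now named Acod1, encodes the mitochondrial enzyme that decarboxylates the citrate cycle intermediate cis-aconitate to itaconate, and it is among the genes most strongly induced by LPS in macrophages. Itaconate inhibits succinate dehydrogenase, the enzyme that links the citrate cycle to the respiratory chain, and it reacts with protein thiols, among them those of KEAP1, the repressor of the antioxidant factor NRF2. Knockout cells make no itaconate, so returning it from outside asks how far the compound brings the knockout back to the wild-type profile.

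Each library was marked by an 8-base barcode in the oligo-dT primer, and barcoded samples were pooled before amplification. The barcodes are shown because, with the number that precedes them in the labels, they show which libraries were handled together. The labels leave that number undefined, and reading it as the pool is an assumption.
WT replicate 1, pool 1: AACTTGAC
WT replicate 2, pool 1: CGTTACCA
WT replicate 3, pool 1: GCACATCT
itaconate replicate 1, pool 2: AGGATCTA
itaconate replicate 2, pool 3: GCACATCT
itaconate replicate 3, pool 4: CAGCAAGG
All 3 WT libraries lay in pool 1 and the itaconate libraries in pools 2, 3 and 4, so no pool held both labels. Label and pool cannot be told apart in this comparison. The barcode of WT replicate 3 was used again for itaconate replicate 2, in another pool. KO replicates 1 and 2 were in pool 1 and KO replicate 3 in pool 2, and these 3 libraries link pools 1 and 2. Of the 9 libraries, pool 3 held only itaconate replicate 2 and pool 4 only itaconate replicate 3, so nothing links those pools to the rest.

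The targeted gene did not follow the labels. Acod1 (ENSMUSG00000022126.6, chr14:103046977-103056573, plus strand, GRCm38) had 94, 117 and 31169 reads in WT replicates 1, 2 and 3 and 94, 8 and 60716 reads in the itaconate libraries. The KO libraries had 154, 170 and 44920 reads. As CPM (reads scaled to a common library size), these were 11.3, 9.14 and 4170.1 CPM in WT, 8.68, 0.877 and 6421 CPM with itaconate and 7.53, 12.9 and 4421 CPM in KO. WT replicates 1 and 2 were thus as low as the low knockout libraries, and KO replicate 3 and itaconate replicate 3 were as high as WT replicate 3. The 3 high libraries carry the replicate number 3 in each group. The 4 libraries whose Acod1 reads go against the genotype in their title are WT replicates 1 and 2, KO replicate 3 and itaconate replicate 3. Which part of Irg1 was deleted is not given in the sources used here, so reads from the 3′ end of the transcript are no firm check of the allele. The log2 fold change of Acod1 for itaconate over WT was 0.62 ± 2.36 (standard error, SE, here and after each log2 fold change below; 3 libraries per group), and it was -8.14 without itaconate replicate 3. Groups are named below as labelled, and every direction rests on these labels. Lists and leading genes are also given from a fit without the 4 libraries, in which WT replicate 3 is the only WT library, set against itaconate replicates 1 and 2. Its spread is taken to be that of the other groups, and the signs in that fit are values against 1 library.

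**Figure D1:**
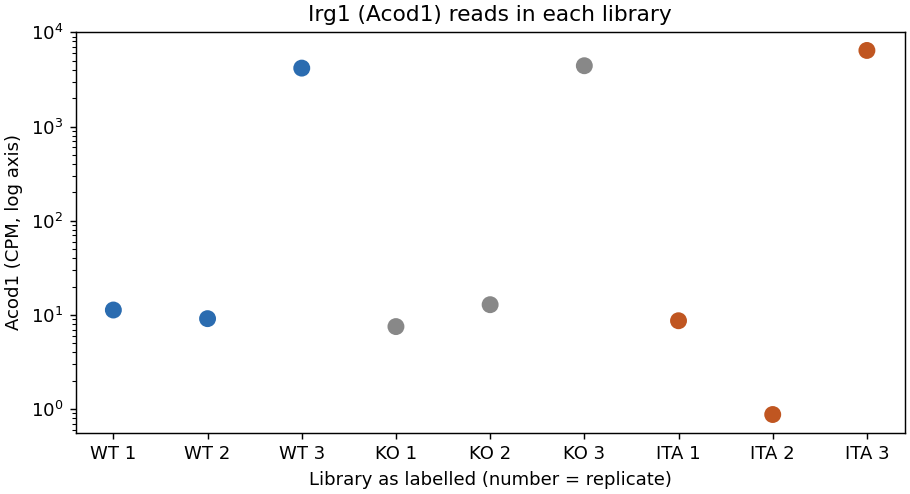
Acod1 level in each of the 9 libraries in CPM on a log axis, 1 point per library, with WT in blue, KO in grey and itaconate-treated knockout (ITA) in orange. Replicate 3 of each group lies at 4170.1 CPM or above, and the other 6 libraries at 12.9 CPM or below.

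The start of Acod1 is shown because the whole design turns on this gene. In the RefSeq promoter table (GRCm38.p6), the 250 bases before its start lie at chr14:103046762-103047011 on the plus strand, written here 5′ to 3′ with a TATAAA match in capitals.
Acod1: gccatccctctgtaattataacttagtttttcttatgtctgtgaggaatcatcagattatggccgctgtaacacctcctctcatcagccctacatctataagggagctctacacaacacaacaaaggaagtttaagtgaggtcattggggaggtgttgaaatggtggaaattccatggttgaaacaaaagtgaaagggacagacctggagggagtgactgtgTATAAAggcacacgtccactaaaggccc
The match begins 28 bases before the RefSeq start. That start lies downstream of the gene start in the coordinates given above with the reads. The end of the window, with the match, therefore falls inside those coordinates. TATAAA was searched for after the sequence had been seen, and 6.98% of the 10953 promoter windows of tested genes, each 300 bases, held it on either strand. Of 5 other motifs searched on both strands of the same window, none was present. These were TGANTCA (AP-1 type, in 5.22% of windows), TGACGTCA (cyclic AMP response type, 3.16%), and the NF-kB (10.4%), interferon response (1.44%) and serum response (1.24%) motifs.

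Itaconate replicate 3 stood apart from the other libraries. Its correlation with the other 8 libraries, over log2 CPM across genes, averaged 0.909, against 0.939 to 0.954 for those. Reads that the counter assigned to no feature made up 33.7% of its reads and 23.1% to 28.4% of theirs. In that library alone 349 genes had at least 3 reads, against 27 to 97 genes in each other library. Gene reads of the 6 libraries ranged from 7361671 to 12224652, at which 3 reads equal 0.234 to 0.401 CPM, and such limits cover counting error only. Lists and leading genes are given without itaconate replicate 3 as well.

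Across all genes, no gene passed the test for a difference between itaconate-treated knockout and wild type. Of 10781 tested genes, 0 (0%) had an adjusted p under 0.05 (edgeR quasi-likelihood F test, Benjamini-Hochberg), and the smallest adjusted p was 0.492. An unadjusted p under 0.05, the mark used below to describe genes, was reached by 958 genes (8.89%), of which 574 (5.32%) were higher with itaconate and 384 (3.56%) lower. By sign alone, 5292 tested genes were higher and 5489 lower. These values over all genes are the background for every list count below. The 3 itaconate libraries lay above all 3 WT libraries for 787 genes (7.3%) and below them for 782 (7.25%). Upper-quartile scaling moved the 574 and 384 genes to 458 and 434, median-ratio scaling to 603 and 378, and limma-voom, which is another model, to 429 and 486. The median log2 fold change was -0.011 and the median SE 0.35.

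A second count test, DESeq2, called 17 of 10770 genes (0.158%), 13 higher and 4 lower with itaconate, while limma-voom called 0, with 915 genes under an unadjusted p of 0.05. With no filter on low counts, edgeR called 92 of 14936 genes (0.616%), 83 of them higher, and 62 of the 92 had been tested with the filter. Without itaconate replicate 1, edgeR called 4 genes and 1772 had an unadjusted p under 0.05, and without itaconate replicate 3 it called 0 and 557 genes had such a p. Without WT replicate 2 there were 599. Of the 574 higher genes, itaconate replicate 3 was the highest itaconate library in 79.4%, and 200 (34.8%) kept an unadjusted p under 0.05 without it. Of the 384 lower genes it was the lowest in 71.1%, and 154 (40.1%) kept such a p. With pool as a term, 0 genes were called and 475 had an unadjusted p under 0.05. In that fit itaconate replicates 2 and 3, each alone in a pool, add nothing to the contrast, which is itaconate replicate 1 against KO replicate 3 added to KO replicates 1 and 2 against WT. Its itaconate arm is thus 1 library, set against a KO library whose Acod1 reads go against its label, and values with pool as a term are given for description only. In the fit without the 4 libraries, 365 genes had an unadjusted p under 0.05. Acod1 was the 1 gene called there, at a log2 fold change of -9.73, which the choice of libraries by their Acod1 reads had fixed.

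**Figure D2:**
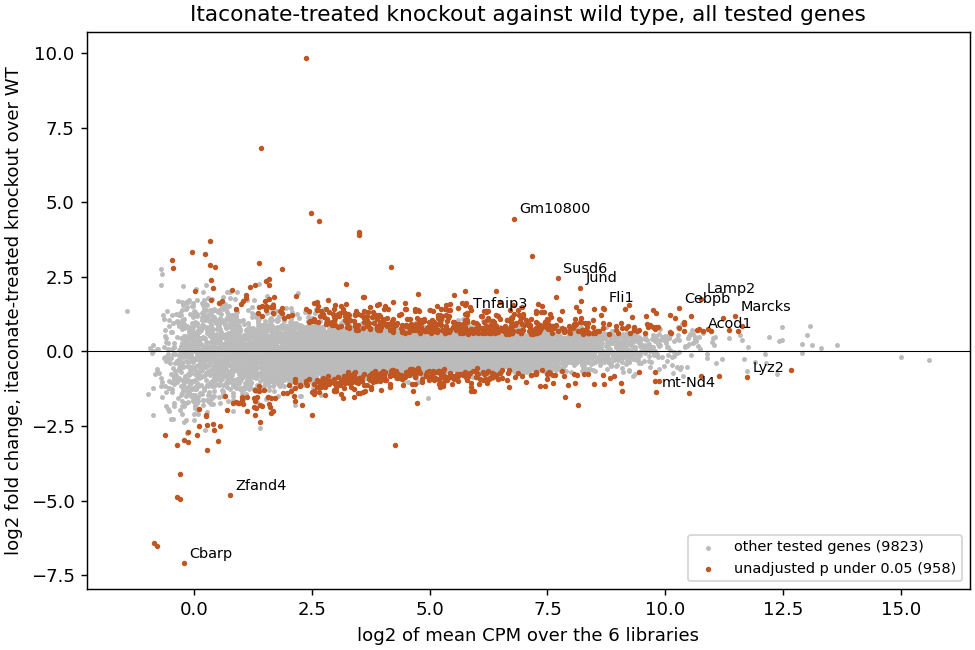
Log2 fold change of itaconate-treated knockout over WT against log2 of the mean CPM over the 6 libraries, 1 point per tested gene, with the 958 genes of unadjusted p under 0.05 in orange. Most tested genes lie near 0, and the orange points are spread over the whole range of levels.

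Groups did not overlap for 787 higher (7.3%) and 782 lower (7.25%) of all 10781 tested genes. At a mean of at least 10 CPM, 626 of these were higher and 491 lower with itaconate. The 10 of each direction with the smallest p are described. Their adjusted p in edgeR was 0.492 or above. Susd6, a membrane protein gene, led them with 40.6, 50.3 and 103 CPM in WT replicates 1, 2 and 3 and 163, 298 and 605 CPM in the itaconate libraries, a log2 fold change of 2.46 ± 0.49 (adjusted p 0.0019 in DESeq2). Every itaconate library lay above every WT library, and the value was 1.84 without itaconate replicate 3 and 1.14 without the 4 libraries. Fli1, an ETS family transcription factor, had 212, 217 and 223 CPM in WT and 348, 734 and 712 CPM with itaconate, a log2 fold change of 1.46 ± 0.32. The WT libraries were nearly level, and itaconate replicates 2 and 3 were the high ones. Marcks, a membrane-bound substrate of protein kinase C that binds actin, had 1929, 1733 and 1611 CPM in WT and 3758, 3694 and 4438 CPM with itaconate. Its log2 fold change of 1.17 ± 0.27 was 1.09 without itaconate replicate 3 and 1.20 without the 4 libraries, and all 3 itaconate libraries were high.

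The predicted gene Gm10800 had 10.7, 9.29 and 8.96 CPM in WT and 13.1, 93.1 and 527 CPM with itaconate, so its log2 fold change of 4.45 ± 0.90 came from itaconate replicates 2 and 3. Irf2bp2, a corepressor partner of IRF2, had 323, 229.7 and 364 CPM in WT and 576, 806 and 1283 CPM with itaconate, a log2 fold change of 1.54 ± 0.37. The basic helix-loop-helix factor Usf1 stood at 1.89 ± 0.44, from 17.3, 18.9 and 21.9 CPM in WT and 49.96, 59.3 and 106 CPM with itaconate, and KO replicate 3 (57.1 CPM) was close to itaconate replicate 2. Kat2b, a histone acetyltransferase, had 60.7, 59.8 and 76.0 CPM in WT and 118, 142 and 207 CPM with itaconate, a log2 fold change of 1.25 ± 0.29, while the KO libraries stood at 98.3, 98.9 and 124 CPM and lay above all WT libraries too. For Atr, the kinase of the replication stress checkpoint, the log2 fold change was 1.92 ± 0.45, with itaconate replicate 3 (78.7 CPM) far above replicate 1 (16.8 CPM). The cyclic AMP phosphodiesterase gene Pde4a and the phosphatidylinositol 4-kinase gene Pi4kb both showed a log2 fold change of 1.41 ± 0.32, from at most 14.6 and 12.8 CPM in WT to at least 23.4 and 20.9 CPM with itaconate. The log2 fold changes of the 10 ranged from 1.00 to 2.45 without itaconate replicate 3, from 0.77 to 2.54 without the 4 libraries and from -0.25 to 0.97 with pool as a term, where Gm10800, Usf1 and Irf2bp2 were below 0. In DESeq2 all 10 passed, with adjusted p from 0.0019 to 0.04. KO replicate 3, which shares pool 2 with itaconate replicate 1, lay above all WT libraries for 9 of these 10 genes. KO replicates 1 and 2, which share pool 1 with WT, did so for 2 and 4. Over all 787 genes with the itaconate libraries above all WT libraries, KO replicates 1, 2 and 3 did so for 40.5%, 31.5% and 69.6%. The part of pool was not tested.

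Genes on the lower side differed less in size. Trim11, a ubiquitin ligase gene, had 19.3, 16.2 and 21.3 CPM in WT and 10.3, 7.35 and 5.82 CPM with itaconate, a log2 fold change of -1.27 ± 0.31, which was -1.08 without itaconate replicate 3 and -1.26 without the 4 libraries. The libraries of each group were close together, and none overlapped. mt-Nd4, a mitochondrially encoded subunit of respiratory complex I, had 1043, 1757 and 1062 CPM in WT and 592, 547 and 359 CPM with itaconate, a log2 fold change of -1.37 ± 0.33 (adjusted p 0.04 in DESeq2). The lowest WT library lay well above the highest itaconate library. Because mt-Nd4 overlaps mt-Nd4l, their reads are assigned less certainly. Fabp5, an intracellular fatty acid carrier, had 1266, 3829.5 and 1221 CPM in WT and 1033, 818 and 540.3 CPM with itaconate, a log2 fold change of -1.40 ± 0.42, where WT replicate 2 was far above the other WT libraries and the value without the 4 libraries was -0.40.

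Tecr, an enzyme of very long-chain fatty acid elongation, had 32.2, 30.3 and 26.9 CPM in WT and 17.7, 14.7 and 8.14 CPM with itaconate, a log2 fold change of -1.14 ± 0.31. The purine synthesis enzyme gene Paics stood at -1.09 ± 0.31 and Pisd, which makes phosphatidylethanolamine in mitochondria, at -1.08 ± 0.32. B4galt5, an enzyme of glycosphingolipid synthesis, had 98.5, 87.7 and 92.2 CPM in WT and 52.6, 54.4 and 36.4 CPM with itaconate, a log2 fold change of -0.96 ± 0.29. Values for the endolysosomal channel gene Tpcn1, the ubiquitin ligase adaptor gene Wdtc1 and the collagen gene Col1a1 were -1.04 ± 0.30, -1.13 ± 0.34 and -0.94 ± 0.28. For Paics all 3 KO libraries (29.5, 34.9 and 30.8 CPM) lay below the lowest WT library (48.3 CPM). KO replicates 1, 2 and 3 lay below all WT libraries in 6, 5 and 7 of these 10 genes. Over all 782 genes with the itaconate libraries below all WT libraries, they did so for 63.3%, 43.5% and 68.9%. The log2 fold changes of the 10 ranged from -1.18 to -0.79 without itaconate replicate 3, from -1.35 to -0.40 against the 1 WT library left without the 4 libraries and from -1.95 to -0.32 with pool as a term, where itaconate replicate 1 alone informs the contrast.

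**Figure D3:**
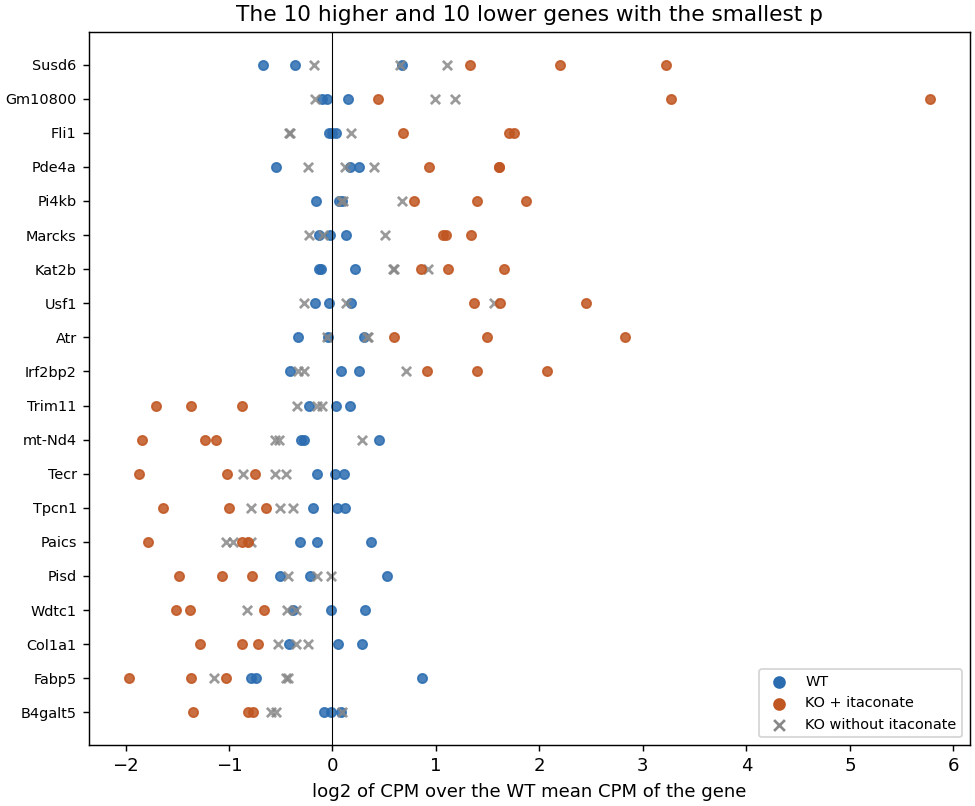
Log2 of the CPM of each library over the mean CPM of the WT libraries, for the 10 higher and 10 lower genes of smallest p, with WT as blue points, itaconate-treated knockout as orange points and KO without itaconate as grey crosses. The orange points lie to one side of all blue points in each row by the rule that chose the genes, and the grey crosses of KO show where the knockout without itaconate stood.

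DESeq2 called 6 further genes. Rbfox2, a splicing regulator, had 3.6, 5.86 and 6.42 CPM in WT and 14.3, 19.2 and 22.5 CPM with itaconate and a log2 fold change of 1.82 ± 0.43 in edgeR. Gigyf1, a translational repressor, stood at 1.84 ± 0.44 and the calcium/calmodulin-dependent kinase gene Camk2d at 1.35 ± 0.34. Wdr55, a WD-repeat protein gene, had 9.72, 8.98 and 8.56 CPM in WT and 3.05, 2.08 and 1.06 CPM with itaconate, a log2 fold change of -2.13 ± 0.46. Cbarp had 17, 12 and 12 reads in WT and 0, 0 and 0 in the itaconate libraries, at least 14.04-fold lower when the itaconate group is set at 3 reads over its libraries. Zfand4 had 41, 43 and 8 reads in WT and 3, 0 and 0 with itaconate, a WT over itaconate ratio of 31.5 (95% exact counting interval 10.5 to 156). KO libraries of Zfand4 were low as well, at 0.391, 0.756 and 0.59 CPM against 4.92, 3.36 and 1.07 CPM in WT.

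The 13 genes of the mitochondrial genome, which encode subunits of respiratory complexes I, III and IV and of the ATP synthase, were all lower with itaconate as labelled. Their median log2 fold change was -0.84, against -0.011 over all tested genes, and 9 of the 13 had an unadjusted p under 0.05, against 3.56% of all genes on the lower side. None passed adjustment. mt-Cytb, the complex III subunit, had 583, 909 and 827 CPM in WT and 413, 418 and 96.9 CPM with itaconate, a log2 fold change of -1.32 ± 0.45. The complex IV subunit gene mt-Co1 had 7034, 8501 and 8184 CPM in WT and 5269, 5753 and 4291 CPM with itaconate, a log2 fold change of -0.63 ± 0.25, and its groups did not overlap. mt-Nd5 stood at -1.79 ± 0.51, but WT replicate 1 (906 CPM) lay far above WT replicates 2 and 3 (261 and 162 CPM), and the groups overlapped. The smallest differences were -0.26 ± 0.31 for mt-Atp8 and -0.56 ± 0.57 for mt-Nd6, both with overlapping groups.

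As a share of gene reads, these genes took 2.14%, 2.57% and 2.08% in WT replicates 1, 2 and 3 and 1.73%, 1.27% and 0.709% in the itaconate libraries. The KO libraries stood at 1.81%, 2.21% and 1.72%. The WT mean was 2.26% ± 0.268 (SD, n = 3) and the itaconate mean 1.24% ± 0.512 (SD, n = 3), a difference of -1.02 percentage points with no overlap. The two-sided exact permutation test gave p = 0.1, the smallest that 3 against 3 allows. With itaconate replicate 3 left out the difference was -0.761 points. The list's median log2 fold change was -0.66 without that library, -0.60 without the 4 libraries and -0.22 with pool as a term. The share of reads assigned to no feature was 26.3% and 33.7% in itaconate replicates 2 and 3, above the 24.4% to 25.6% of WT. In itaconate replicate 1, whose mitochondrial share of 1.73% also lay below every WT library, it was 23.1%, the lowest of the 6. KO replicate 3, which shares pool 2 with that library and had no itaconate, stood close to it. Its mitochondrial share was 1.72% and its share of reads assigned to no feature 23.5%. The part of unassigned reads or of pool in the result was not tested.

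Nuclear genes of mitochondria showed a smaller shift that rested more on 1 library. Of the nuclear-encoded respiratory chain genes, 14 of 72 tested (77 listed) were higher and 58 lower, with a median log2 fold change of -0.35. An unadjusted p under 0.05 was reached by 2 (2.78%) and 7 (9.72%), against 5.32% and 3.56% of all genes. Relative to the WT mean, the list's median log2 level was 0.0033, -0.22 and -0.97 in itaconate replicates 1, 2 and 3, so replicate 1 was level with WT and replicate 3 was far below. Without replicate 3 the median was -0.11. The KO libraries, without itaconate, also lay below the WT mean, at -0.40, -0.24 and -0.029. Atp5j, an ATP synthase subunit, had 126, 165 and 139 CPM in WT and 98.0, 69.7 and 21.9 CPM with itaconate, and the complex IV subunit gene Cox8a had 187, 233 and 255 CPM in WT and 136, 133 and 34.2 CPM with itaconate. The mitochondrial ribosomal proteins stood at a median of -0.24 (17 higher and 59 lower of 76 tested, 78 listed), and -0.051 without itaconate replicate 3. Relative to WT the KO libraries stood at -0.42, -0.075 and -0.061 for this list. Mrpl39 was -0.77 ± 0.29 and Mrpl40 -0.60 ± 0.26, both without overlap.

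Of the citrate cycle and itaconate metabolism genes, 4 of 28 were higher and 24 lower, at a median of -0.32 (-0.13 without itaconate replicate 3). An unadjusted p under 0.05 was reached by 1 (3.57%) and 3 (10.7%), against 5.32% and 3.56% of all genes. Relative to WT the list stood at -0.15, -0.15 and -0.67 in the itaconate libraries and at -0.32, -0.10 and -0.053 in KO. Suclg1, a subunit of succinyl-CoA ligase, had 32.5, 41.9 and 51.0 CPM in WT and 27.9, 29.8 and 14.1 CPM with itaconate, a log2 fold change of -0.80 ± 0.32. Ogdh, a subunit of the 2-oxoglutarate dehydrogenase complex, stood on the other side at 0.60 ± 0.28. Sdha, the succinate dehydrogenase subunit that carries the active site, had 67.3, 77.2 and 95.3 CPM in WT and 78.0, 88.2 and 46.4 CPM with itaconate, a log2 fold change of -0.17 ± 0.29, with overlapping groups. Glycolysis and HIF-1 target genes had a median of -0.19 (7 higher and 21 lower of 28, with 0 and 3, or 10.7%, at an unadjusted p under 0.05). Relative to WT they stood at -0.061, -0.12 and -0.53 in the itaconate libraries and at -0.49, -0.10 and -0.098 in KO. The hexokinase gene Hk1 had 142, 83.2 and 75.7 CPM in WT and 38.7, 66.5 and 58.4 CPM with itaconate, and its KO libraries were as low, at 37.4, 50.7 and 54.5 CPM. Aldoa, the aldolase of glycolysis, stood at -0.83 ± 0.38, and at -0.45 without itaconate replicate 3 (138 CPM against 530.3 in replicate 1).

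**Figure D4:**
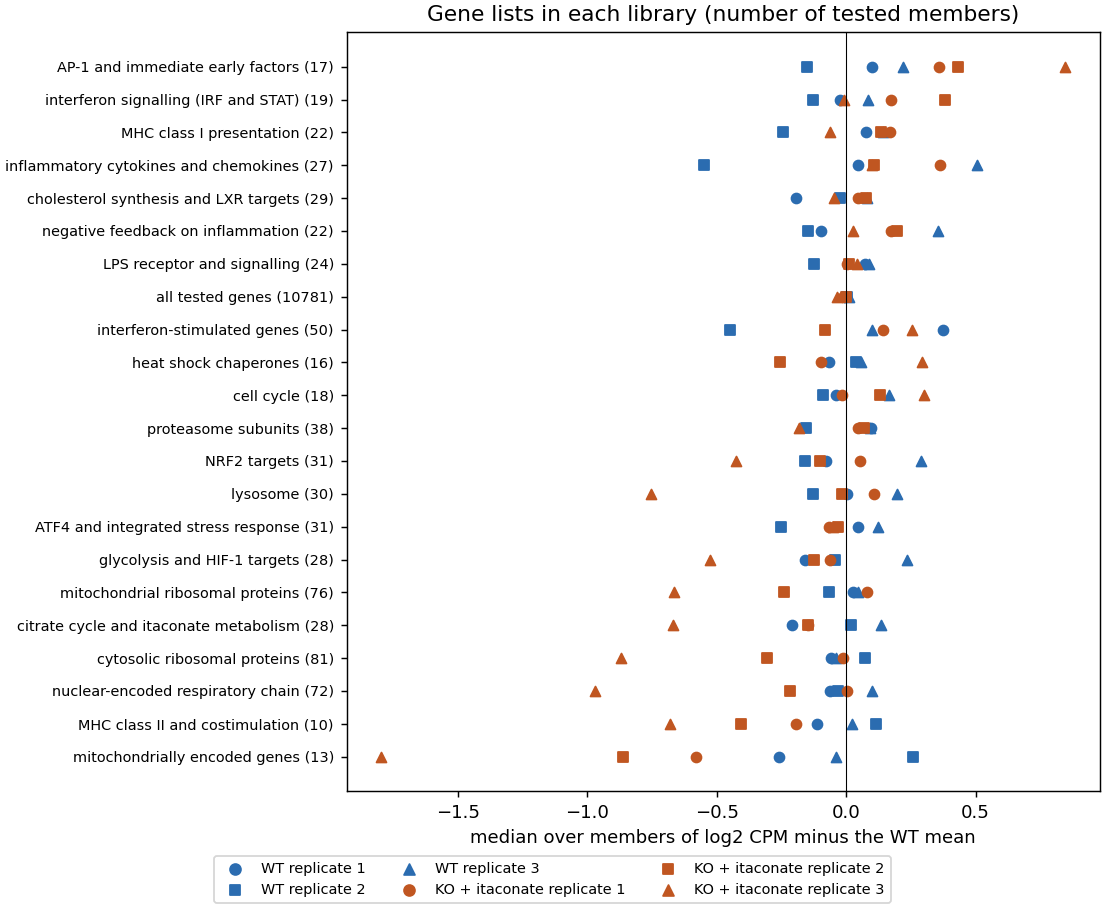
Median over the tested members of each gene list of the log2 CPM minus the gene's WT mean, 1 point per library, with WT in blue and itaconate-treated knockout in orange and the shape giving the replicate number. The mitochondrially encoded genes lie below all WT libraries in each itaconate library, and itaconate replicate 3 (triangles) lies farthest from 0 in most of the lower lists.

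The LPS response starts at TLR4, which signals through MYD88 to NF-kB and through TRIF to interferon regulatory factors, and inducible inhibitors then damp it. Of the 24 genes of the LPS receptor and its signalling, 12 were higher and 12 lower, with a median of 0.0027. Irak1, a kinase of the MYD88 complex, had 108, 87.7 and 93.9 CPM in WT and 129.8, 140.0 and 175 CPM with itaconate, a log2 fold change of 0.62 ± 0.29, and was the 1 member with an unadjusted p under 0.05. Map3k7, which encodes the kinase TAK1, had 58.7, 70.1 and 43.3 CPM in WT and 179, 38.3 and 98.9 CPM with itaconate, with replicate 2 below and replicate 1 above the WT range.

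Immediate early factors, mostly subunits of the AP-1 transcription factor and zinc-finger factors induced by many stimuli, were on the higher side. Of 17 tested (20 listed), 16 were higher and 1 lower, 2 and 0 with an unadjusted p under 0.05, and the median was 0.55. The itaconate libraries lay above all WT libraries for 5 of the 17, against 7.3% of all genes. Jund had 94.2, 94.6 and 136 CPM in WT and 137, 241 and 1044 CPM with itaconate, a log2 fold change of 2.13 ± 0.60, and Fos had 28.3, 21.4 and 31.4 CPM in WT and 42.3, 33.4 and 172 CPM with itaconate, at 1.61 ± 0.58. Itaconate replicate 3 was far above the next itaconate library in both, and without it the values were 0.81 and 0.50. Junb had 147, 117 and 146 CPM in WT and 186, 254 and 211 CPM with itaconate, a log2 fold change of 0.67 ± 0.32 that was 0.69 without replicate 3. The list stood at 0.36, 0.43 and 0.85 relative to WT in the itaconate libraries and at -0.29, -0.035 and 0.50 in the KO libraries. KO replicate 3, the pool-mate of itaconate replicate 1, was thus as high as itaconate replicates 1 and 2, and with pool as a term the median was -0.11. Egr2, the exception, had 13, 12 and 13 reads in WT and 4, 0 and 2 with itaconate.

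Of 22 negative regulators of inflammation, 14 were higher and 8 lower, 2 and 1 with an unadjusted p under 0.05, at a median of 0.050. Tnfaip3, which encodes the ubiquitin-editing inhibitor A20, had 27.8, 28.1 and 41.2 CPM in WT and 61.6, 57.0 and 119 CPM with itaconate, a log2 fold change of 1.29 ± 0.38. Zfp36, whose product tristetraprolin destabilises cytokine mRNA, had 68.2, 53.7 and 88.4 CPM in WT and 149, 146 and 134 CPM with itaconate, at 1.03 ± 0.35, and its 3 itaconate libraries were close together. The groups did not overlap in either gene, although KO replicate 3 reached 132 CPM of Zfp36 and the values with pool as a term were -0.047 and -0.12. Socs3, an inhibitor of cytokine receptor signalling, stood at -0.74 ± 0.33 with overlapping groups. Nfkbiz, a nuclear IkB protein needed for Il6 induction, had 183, 198 and 169.8 CPM in WT and 158, 247 and 221 CPM with itaconate, at 0.19 ± 0.27, and Atf3, a repressor of LPS targets, had 509, 264 and 553 CPM in WT and 312, 279 and 589 CPM with itaconate, at -0.17 ± 0.35.

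For inflammatory cytokines, chemokines and enzymes, 15 of 27 tested genes (32 listed) were higher and 12 lower, 1 and 0 with an unadjusted p under 0.05, and the median was 0.14. Il1b had 341, 445 and 576 CPM in WT and 338, 407 and 259 CPM with itaconate, a log2 fold change of -0.44 ± 0.28. Tnf had 34.6, 25.8 and 55.5 CPM in WT and 29.8, 46.2 and 38.9 CPM with itaconate, at -0.0096 ± 0.39, and the nitric oxide synthase gene Nos2 had 46.9, 41.5 and 105 CPM in WT and 35.3, 44.1 and 82.0 CPM with itaconate, at -0.26 ± 0.41. In all 3 the groups overlapped. Il6 was low at this time, with 6, 21 and 24 reads in WT and 34, 13 and 39 with itaconate. Ptgs2, the inducible cyclooxygenase, had 37.0, 67.5 and 89.2 CPM in WT and 78.2, 114 and 316 CPM with itaconate, at 1.39 ± 0.63, with replicate 3 the high library. Osm, a cytokine of the IL-6 family, had 6.48, 3.67 and 7.49 CPM in WT and 10.6, 12.8 and 12.1 CPM with itaconate, at 1.02 ± 0.49 without overlap, and Ccl5, a T-cell chemokine, stood at -0.76 ± 0.41 with itaconate replicate 3 low (1276 CPM against 5822 in replicate 1).

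The WT libraries themselves spread widely here. Relative to their own mean the list stood at 0.045, -0.55 and 0.50 in WT replicates 1, 2 and 3, and the itaconate libraries lay inside that range, at 0.36, 0.11 and 0.099. WT replicate 2 was low and WT replicate 3, the Acod1-high library, was high. The median turned to -0.25 without the 4 libraries and to -1.001 with pool as a term.

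Interferon-stimulated genes, the antiviral set that secreted interferon beta drives in LPS-treated macrophages, were evenly divided. Of 50, 24 were higher and 26 lower, 1 and 2 with an unadjusted p under 0.05, at a median of -0.013. Isg15, a ubiquitin-like modifier, had 117, 65.9 and 155 CPM in WT and 134, 222 and 183 CPM with itaconate, a log2 fold change of 0.68 ± 0.42. Cxcl10, a chemokine for activated T cells, had 287, 39.8 and 316 CPM in WT and 304, 229 and 231 CPM with itaconate, at 0.25 ± 0.71, with WT replicate 2 far below the other WT libraries. Eif2ak2, which encodes the double-stranded RNA sensor PKR, had 217, 174 and 211 CPM in WT and 257, 307 and 617 CPM with itaconate, at 0.97 ± 0.33, and Lgals3bp had 631, 503 and 556 CPM in WT and 371, 314 and 107 CPM with itaconate, at -1.09 ± 0.39. Neither gene's groups overlapped, the directions were opposite, and itaconate replicate 3 was the extreme library in each.

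The interferon gene itself, Ifnb1, was below the filter. It had 1, 0 and 2 reads in WT replicates 1, 2 and 3, 17, 6 and 22 in the itaconate libraries and 0, 4 and 6 in KO. The itaconate over WT ratio was 14.6 (95% exact counting interval 4.69 to 73.4, which covers counting error only), at levels of at most 2.33 CPM. Every itaconate library had more reads than any WT library, and KO replicate 3 equalled itaconate replicate 2 at 6 reads. Among 19 tested receptors, kinases and factors of interferon signalling (20 listed), 13 were higher and 6 lower, at a median of 0.26. An unadjusted p under 0.05 was reached by 3 (15.8%) and 1 (5.26%), against 5.32% and 3.56% of all genes. Stat2, a transcription factor activated downstream of the type I interferon receptor, had 893, 563 and 789.8 CPM in WT and 903, 1451 and 2494 CPM with itaconate, a log2 fold change of 1.11 ± 0.36. The receptor chain gene Ifnar1 had 274, 289 and 309 CPM in WT and 333, 417 and 638 CPM with itaconate, at 0.67 ± 0.28. Itaconate replicate 1 lay close to the highest WT library in both, and without replicate 3 the values were 0.66 and 0.37.

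Electrophilic stress activates NRF2, which induces glutathione synthesis, NADPH production and haem breakdown. Its targets were divided, as 10 of 31 tested (32 listed) were higher and 21 lower, at a median of -0.093. An unadjusted p under 0.05 was reached by 3 (9.68%) and 1 (3.23%), against 5.32% and 3.56% of all genes. Members at higher levels with itaconate were Gclc, the catalytic subunit of glutamate-cysteine ligase, with 107, 127 and 111 CPM in WT and 147, 178 and 297 CPM with itaconate (0.85 ± 0.33), and Gsr, glutathione reductase, with 163, 220.2 and 293 CPM in WT and 322, 337 and 462 CPM with itaconate (0.73 ± 0.33). Neither pair of groups overlapped. KO replicate 3, at 213 CPM of Gclc and 360 CPM of Gsr, lay above itaconate replicates 1 and 2 in both genes. KO replicates 1 and 2 lay below all itaconate libraries. Without itaconate replicate 3 the log2 fold changes were 0.50 for Gclc and 0.56 for Gsr, and without the 4 libraries 0.55 and 0.17. Hmox1, the inducible haem oxygenase, had 191, 261 and 379 CPM in WT and 363, 432 and 425 CPM with itaconate, a log2 fold change of 0.55 ± 0.32, with the highest WT library above the lowest itaconate library. Gclm, the modifier subunit of the same ligase, had 759.9, 625 and 927 CPM in WT and 715, 861 and 669.6 CPM with itaconate, at -0.041 ± 0.28. Nqo1, a quinone reductase and a standard NRF2 readout, had 31, 66 and 23 reads in WT and 59, 30 and 29 with itaconate, at -0.023 ± 0.46. The cystine transporter gene Slc7a11 had 79.6, 54.0 and 148 CPM in WT and 93.0, 111 and 227 CPM with itaconate, at 0.62 ± 0.44, which was -0.54 without the 4 libraries. Osgin1 stood at -0.99 ± 0.43 and Keap1, the repressor, at 0.64 ± 0.29, both with overlap. With pool as a term the list's median was -0.46.

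Of the ATF4 and integrated stress response genes, 14 of 31 tested (36 listed) were higher and 17 lower, 1 and 2 with an unadjusted p under 0.05, at a median of -0.16. Cebpb, a bZIP factor that is also induced by LPS, had 526, 609 and 866 CPM in WT and 1961, 1506 and 1987 CPM with itaconate, a log2 fold change of 1.45 ± 0.46. The groups were far apart, but KO replicate 3 reached 1746 CPM and the other KO libraries did not. The transaminase gene Gpt2 stood at -1.50 ± 0.51 and the glycyl-tRNA synthetase gene Gars at -0.69 ± 0.30.

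In antigen presentation, 10 of the 12 listed class II and costimulation genes were tested and all 10 were lower with itaconate, 1 with an unadjusted p under 0.05, at a median of -0.47. Relative to WT the list stood at -0.19, -0.40 and -0.68 in the itaconate libraries and at -0.51, -0.14 and -0.13 in KO. H2-Ab1, the class II beta chain, had 27.4, 38.7 and 32.2 CPM in WT and 25.3, 19.8 and 10.6 CPM with itaconate, a log2 fold change of -0.82 ± 0.33. Ctss, the protease that trims the invariant chain, had 5123, 5596 and 4660.4 CPM in WT and 4412, 3552 and 3644 CPM with itaconate, at -0.41 ± 0.25. The T-cell costimulator gene Cd80 stood at -0.81 ± 0.46 and Cd40, a receptor of the TNF receptor family, at -0.011 ± 0.32. The median was -0.26 without itaconate replicate 3 and -0.26 without the 4 libraries. Of 22 class I genes, 16 were higher and 6 lower, at a median of 0.18. An unadjusted p under 0.05 was reached by 3 (13.6%) and 1 (4.55%), against 5.32% and 3.56% of all genes. Tap2, a subunit of the class I peptide transporter, had 16.9, 16.8 and 19.8 CPM in WT and 42.7, 35.6 and 60.5 CPM with itaconate, a log2 fold change of 1.38 ± 0.37 without overlap, and KO replicate 3 stood at 45.6 CPM. H2-K1 had 1377, 1268 and 1947 CPM in WT and 2273, 2485 and 2646 CPM with itaconate, at 0.69 ± 0.30. H2-T23 stood at -3.15 ± 0.85, with WT replicate 2 above the other WT libraries, at 88.7 CPM against 9.6 and 5.62 CPM. Near-identical H2 genes share reads, so single members are uncertain.

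Lysosomal genes were divided, 13 higher and 17 lower of 30, at a median of -0.15. An unadjusted p under 0.05 was reached by 3 (10%) each way, against 5.32% higher and 3.56% lower over all genes. Lamp2, a lysosomal membrane protein, had 712, 645 and 1023 CPM in WT and 840.2, 1787 and 5435 CPM with itaconate, a log2 fold change of 1.76 ± 0.55, and Npc1, the cholesterol exporter of lysosomes, had 265, 265 and 249 CPM in WT and 294, 378 and 532 CPM with itaconate, at 0.63 ± 0.28. The scavenger receptor Cd68 had 369, 328 and 410.2 CPM in WT and 229.8, 225 and 74.0 CPM with itaconate, at -1.06 ± 0.37. In Lamp2 and Cd68 itaconate replicate 3 lay far from replicates 1 and 2, in opposite directions. Cholesterol synthesis and LXR target genes stood at a median of 0.078 (16 higher and 13 lower of 29 tested, 31 listed, 1 and 0 with an unadjusted p under 0.05). Ch25h, which makes the oxysterol 25-hydroxycholesterol, had 7, 29 and 12 reads in WT and 29, 42 and 57 with itaconate, at 1.47 ± 0.69.

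Among growth and protein quality genes, cytosolic ribosomal proteins were mostly lower, 68 of 81 tested (83 listed), at a median of -0.34. Of the 81, 8 (9.88%) were lower with an unadjusted p under 0.05, against 3.56% of all genes. In itaconate replicates 1, 2 and 3 the list stood at -0.012, -0.31 and -0.87 relative to WT, so replicate 1 was level with WT, and the median was -0.15 without replicate 3. The KO libraries, without itaconate, stood at -0.27, -0.27 and -0.093. Rps29 had 1163, 1123 and 1219.8 CPM in WT and 805, 683 and 288 CPM with itaconate, a log2 fold change of -0.98 ± 0.33, and reads of such genes are shared with pseudogenes. Of 16 heat shock chaperones, 8 were higher and 8 lower, with 2 at an unadjusted p under 0.05 each way. The inducible Hsp90aa1 and constitutive Hsp90ab1 stood at 1.12 ± 0.35 and 0.67 ± 0.27, and the constitutive Hsp70 gene Hspa8, with 826, 814 and 945 CPM in WT and 611, 543 and 452 CPM with itaconate, at -0.69 ± 0.25. None of the 3 overlapped between the groups. Hsp90aa1 had 1363, 1236 and 1933 CPM in WT and 2124, 2414 and 5288 CPM with itaconate, and KO replicate 3 had 2433 CPM. Its log2 fold change was 0.59 without itaconate replicate 3 and 0.22 without the 4 libraries. Without itaconate replicate 3, Hsp90ab1 stood at 0.50 and Hspa8 at -0.57. Proteasome subunits had a median of -0.076 (15 higher and 23 lower of 38 tested, 39 listed) and cell cycle genes of -0.067 (8 higher and 10 lower of 18 tested, 26 listed). Ccnd1, the cyclin of growth factor entry into the cycle, had 62.8, 25.1 and 36.5 CPM in WT and 80.3, 99.6 and 135 CPM with itaconate, at 1.34 ± 0.43 without overlap.

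Refits moved several list medians. Without itaconate replicate 3, the lysosomal median was 0.030, that of proteasome subunits 0.083, of glycolysis -0.13, of NRF2 targets -0.016 and of class I genes 0.18. The AP-1 list stood at 0.48, the inflammatory list at 0.12, the interferon signalling list at 0.22 and the cholesterol list at 0.22 in that refit. Negative feedback genes were at 0.14, LPS receptor and signalling genes at 0.019 and interferon-stimulated genes at -0.015. ATF4 genes were at -0.083, heat shock chaperones at -0.11 and cell cycle genes at -0.019. Lysosomal and proteasome lists thus crossed 0. Without the 4 libraries, the AP-1 median was 0.33, the interferon signalling median 0.21, that of NRF2 targets -0.31, of class I genes -0.012, of nuclear-encoded respiratory chain genes -0.19 and of cytosolic ribosomal proteins -0.066. Glycolysis and citrate cycle lists stood at -0.34 and -0.25 there, and interferon-stimulated genes at 0.0076. ATF4 genes were at -0.17, lysosomal genes at -0.15, heat shock chaperones at -0.13 and mitochondrial ribosomal proteins at -0.11. Proteasome subunits were at -0.072, cell cycle genes at -0.051 and cholesterol genes at 0.039. The negative feedback list was at -0.074 and the LPS receptor and signalling list at -0.16 in that fit. Both, and the class I, interferon-stimulated and inflammatory (-0.25) lists, lay on the other side of 0 from the fit of all 9 libraries. With pool as a term the medians of 5 more lists were below 0, unlike in that fit, at -0.022 for interferon signalling, -0.089 for negative feedback, -0.16 for LPS receptor and signalling, -0.078 for class I and -0.45 for cholesterol genes.

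**Figure D5:**
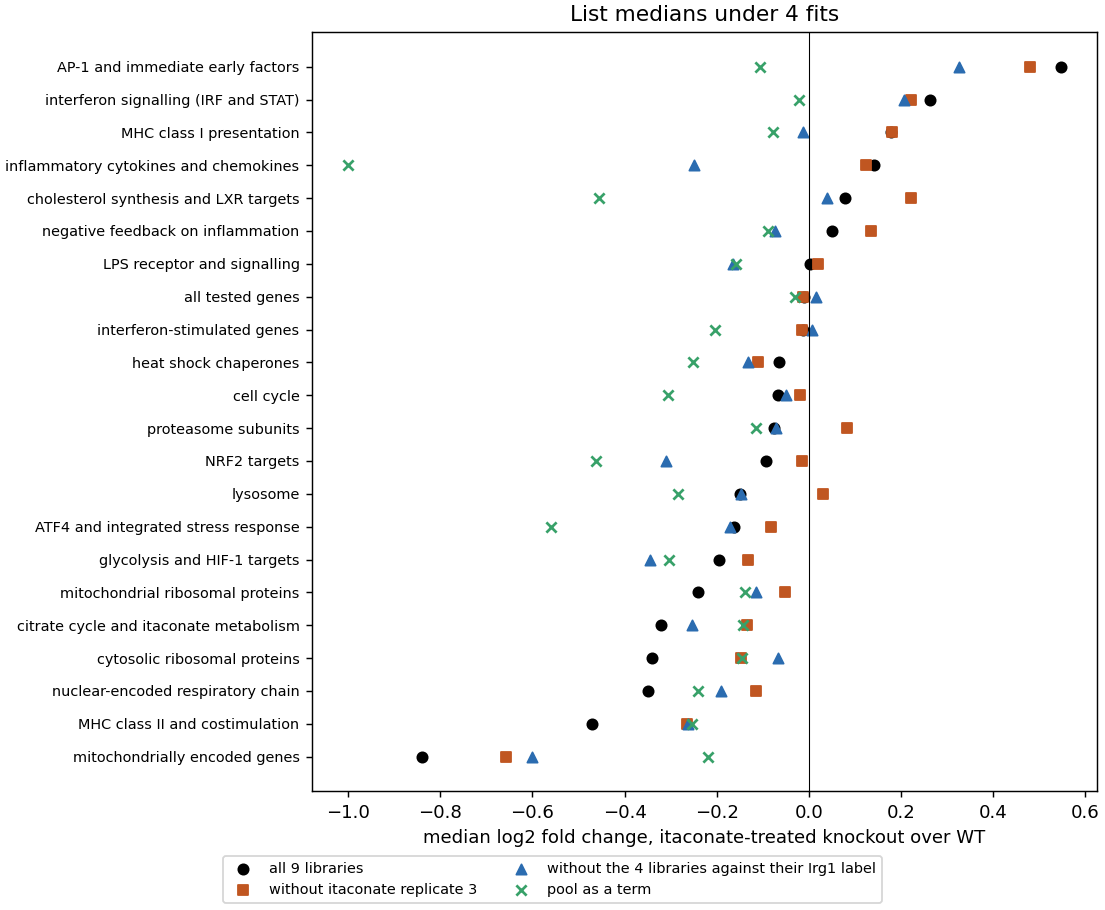
Median log2 fold change of itaconate-treated knockout over WT for each gene list in 4 fits, with black circles for all 9 libraries, orange squares without itaconate replicate 3, blue triangles without the 4 libraries named above for their Acod1 reads and green crosses with pool as a term. The blue triangles rest on 1 WT library and the green crosses on itaconate replicate 1 alone, and the inflammatory list has its black circle at 0.14 and its green cross at -1.001.

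The cells carried the markers of macrophages. All 20 listed macrophage markers had reads, 19 were tested, and 4 of these were higher and 15 lower with itaconate, 0 and 3 with an unadjusted p under 0.05. Their summed level was 14488, 17233 and 15819.6 CPM in WT and 13856, 13071 and 9188 CPM with itaconate, so itaconate replicate 3 was low. The KO libraries, without itaconate, also lay below every WT library, at 13301, 13310 and 12519 CPM. Lyz2, the lysozyme of myeloid cells, had 3205, 5318 and 4639.8 CPM in WT and 3132, 2789 and 1339 CPM with itaconate, Cd68 is given above, and Csf1r, the M-CSF receptor, had 357, 493 and 489 CPM in WT and 356, 344 and 142 CPM with itaconate. In bulk samples, fewer cells of a type and less RNA per cell cannot be told apart. The part of these markers in the other lower lists was not tested, and without itaconate replicate 3 their median was -0.032. Neutrophil markers summed to 295 to 385 CPM in WT and 164 to 308 CPM with itaconate, nearly all from S100a8, S100a9 and Csf3r. Ly6g, Mpo and Elane had at most 0.369 CPM in any of the 6 libraries. The other members lay between, at up to 5.75 CPM for Ngp, 4.28 for Ltf, 3.98 for Cxcr2, 2.52 for Retnlg and 1.64 for Camp. Of the 9 B and T cell markers in the table, Cd3e, Cd79a and Nkg7 were at 0 in all 6 libraries, and the sum was at most 2.50 CPM. The dendritic cell list summed to at most 14.3 CPM, most of it Itgax, with Xcr1 at 0, and the erythroid, mast cell and eosinophil list to at most 0.803 CPM. Fibroblast markers summed to 350 to 423 CPM in WT and 298 to 402 CPM with itaconate.

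Transcript length moved with the fold changes. Over the third of tested genes with the shortest transcripts the median log2 fold change was -0.12, and over the third with the longest it was 0.099. In itaconate replicate 3 these gene sets stood at -0.39 and 0.25 relative to WT, in replicate 2 at -0.081 and 0.094, and in replicate 1 at 0.053 and -0.071. Without itaconate replicate 3 the medians were -0.023 and 0.012. KO replicate 1, without itaconate and in pool 1 with WT, stood at -0.26 and 0.20. KO replicate 2 stood at -0.073 and 0.056 and KO replicate 3 at -0.014 and -0.010. Ribosomal and respiratory chain genes have short transcripts, and the part of length in their values was not tested.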

How the data were processed

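The values deposited by the authors are unnormalized counts of reads per gene, as whole numbers, in a single table. The submitters' processing notes list STAR, HTSeq and mm10, with no versions. The annotation release and the strand setting of counting are not given in the sources used here. Per the labels' protocols, mRNA was copied from oligo-dT primers and amplified for 12 cycles into strand-specific libraries, with no molecular identifier mentioned. Reads of such libraries lie mostly near 3′ ends and do not scale with transcript length, so levels were compared within genes only. Copies of 1 molecule count separately.

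The table held 22165 gene rows, of which 21745 matched a symbol, and 5 counter summary lines, which were left out. Reads with several alignments (17.5% to 20.0% in itaconate replicates 1 and 2 and WT, 17.1% in itaconate replicate 3) were not assigned, so near-identical genes are uncertain. Counts were fitted with edgeR 4.0.16 in R 4.3.3 (TMM scaling, filterByExpr at a minimum count of 10, group as the only term, all 9 libraries) and tested with the two-sided quasi-likelihood F test. P-values were adjusted by Benjamini-Hochberg over all 10781 genes, with a threshold of 0.05. The SE is the absolute log2 fold change over the root of F. CPM used TMM-scaled library sizes. DESeq2 1.42.0 and limma 3.58.1 were alternatives, among 20 refits.

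Genes were named by rule: Acod1, then the 10 higher and 10 lower genes of smallest p with at least 10 CPM and no overlap, then 3 members per list by p, a panel of 14 response genes, and any gene called by edgeR, DESeq2 or limma-voom. A few list members outside the rule (mt-Co1, mt-Atp8, mt-Nd6, Gsr, Npc1, H2-K1, Cd40, Egr2, Lyz2, Csf1r) were chosen after their values were seen. The comparison, the lists and the rule were chosen with earlier results of these data known.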

Additional observations from a re-analysis of the deposited data

How the results depend on the processing

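Every refit kept 0 genes called by adjusted p except 4 of them: 92 genes with no filter on low counts (14 of which had at most 3 reads in each library but 1), 17 in DESeq2, 1 without WT replicates 1 and 2, KO replicate 3 and itaconate replicate 3 (the 4 libraries), and 4 without itaconate replicate 1 (Pcolce2, Slit2, Tmc2 and Gm10800). Genes with an unadjusted p under 0.05 numbered 475 with pool as a term and 365 without the 4 libraries, and 557 to 1772 when 1 library was left out, lowest without itaconate replicate 3 and highest without itaconate replicate 1. The difference in mitochondrial share ranged from -1.27 to -0.761 percentage points when 1 library was left out. With pool as a term the list medians were -1.001 (inflammatory), -0.46 (NRF2), -0.22 (mitochondrially encoded), -0.25 (class II) and -0.11 (AP-1), and without the 4 libraries -0.25 (inflammatory) and -0.26 (class II). With 1 library left out the class II median ranged from -0.61 to -0.26. With pool as a term only itaconate replicate 1 informs the itaconate arm, through KO replicate 3, and without the 4 libraries WT replicate 3 is the only WT library, so neither fit shows how stable a sign is.

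Signs of single genes turned as follows, none past the threshold apart from Acod1 without the 4 libraries, which were left out for their Acod1 reads. With pool as a term the log2 fold changes were Acod1 -16.09, Gm10800 -0.22, Usf1 -0.25, Irf2bp2 -0.095, Stat2 -0.12, Socs3 0.010, Ptgs2 -1.97, Osm -1.001, Irak1 -0.28, Nfkb1 -0.31, Tnfaip3 -0.047, Zfp36 -0.12, Gclc -0.49, Cebpb -0.32, Ogdh -0.15, Cd80 0.13, Ctss 0.14, Tap2 -0.052, Ch25h -1.26, Lamp2 -1.19, Atp6v1h -0.27, Ccnd1 -0.13, Ccne1 -1.78, Jund -0.39, Fos -0.14, Junb -0.50, Hsp90aa1 -0.041, Psmc5 0.10, Psmd13 -0.11, Il6 -0.34, Cxcl10 -2.20, Isg15 -1.21, Hmox1 -0.26, Nqo1 0.62, Nfkbiz -0.49, Sdha 0.043, Slc7a11 -1.09, Gigyf1 -0.34, Rbfox2 -0.017 and Camk2d -0.22. Without the 4 libraries they were Acod1 -9.73, Socs3 0.0014, H2-Q4 -0.082, Rpl7a 0.069, Psmd13 -0.20, Il6 -0.48, Cxcl10 -0.25, Nqo1 0.51 and Slc7a11 -0.54. With quality weights in limma-voom they were Acod1 -3.61, Ccne1 -0.10, Tnf 0.15, Gclm 0.073 and Sdha 0.013, and in plain limma-voom Acod1 -0.99 and Tnf 0.048. Tnf, at -0.0096, was 0.0019 in DESeq2, 0.0025 with median-ratio factors and 0.0013 in a fit of the 6 libraries. When 1 library was left out, the log2 fold changes ranged as Acod1 -8.14 to 7.71, Tnf -0.24 to 0.34, Atf3 -0.57 to 0.025, Nqo1 -0.34 to 0.21, Ccne1 -0.37 to 1.58, Gclm -0.17 to 0.11, Sdha -0.36 to 0.062, Cxcl10 -0.25 to 0.64 and Nos2 -0.69 to 0.28. The cause was not tested.

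The deviations of same-numbered WT and itaconate libraries from their group means correlated at -0.079 to -0.018. Not every library correlated best with its own number. For WT and KO the values were 0.102, 0.029 and 0.245 for numbers 1, 2 and 3, and Acod1 was high in replicate 3 of each group. Deviations from a mean of 3 libraries cancel within a group, and same-numbered WT and itaconate libraries lie in different pools. These values therefore cannot decide whether a replicate number marks a shared culture or batch. The fit with a replicate block called 0 genes, with 915 at an unadjusted p under 0.05 and a smallest adjusted p of 0.103, and it turned Acod1 -0.45 and Tnf 0.040. With 1 WT or itaconate library left out the remaining pair is compared with the spread of all groups. Depth limits genes near 3 reads, as for Cbarp, Zfand4 and Ifnb1, and these limits cover counting error only.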

Other observations

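The largest fitted fold changes lay in genes with few reads, and these were picked by that size after the values were seen. Cyp2j7, a cytochrome P450 gene, had 0, 0 and 0 reads in WT, 0, 15 and 274 with itaconate and 4, 0 and 11 in KO. Dzank1 had 0, 1 and 0 reads in WT and 1, 5 and 139 with itaconate, and Tmc2 had 3, 2 and 6 reads in WT and 1, 136 and 157 with itaconate. Nearly all reads of the first pair came from itaconate replicate 3, while Tmc2 was high in replicates 2 and 3 and at 1 read in replicate 1. On the lower side, Nsl1, a kinetochore gene, had 0, 22 and 9 reads in WT and 0, 0 and 0 with itaconate, with 15, 14 and 8 in KO. The 4 genes that edgeR called without itaconate replicate 1 were near WT level in that library. Slit2, a secreted guidance protein gene, had 9, 11 and 18 reads in WT and 19, 81 and 499 with itaconate, and Pcolce2, a procollagen processing enhancer gene, had 2, 21 and 15 in WT and 11, 209 and 379 with itaconate. Their adjusted p in that fit was 0.0317 for Slit2 and 0.0087 for Pcolce2 (edgeR).

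Genes of the Y chromosome were detected in all 6 libraries. Ddx3y, an RNA helicase gene, had 106, 92.5 and 87.1 CPM in WT and 103, 123.2 and 302 CPM with itaconate, so itaconate replicate 3 was high, and Eif2s3y had 28.6, 48.6 and 54.6 CPM in WT and 64.6, 64.2 and 102 CPM with itaconate. Nnt, the mitochondrial transhydrogenase gene that is truncated in the related C57BL/6J strain, had 17.9, 16.6 and 20.3 CPM in WT and 15.6, 13.9 and 9.09 CPM with itaconate, a log2 fold change of -0.50 ± 0.29 without overlap.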
